A study of Mus musculus with 16 samples.

Results

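The genes examined in mouse liver are 9 genes of B cells and antibody-secreting cells, chosen by gene name from the deposited table: Ighm, Ighd, Igkc, Jchain, Mzb1, Cd79a, Cd79b, Ms4a1 and Pax5. The table holds 25719 genes, and all 9 were found in it. The names were proposed with measured levels in view, so the levels of these 9 genes are given as a description and carry no p-value. The study fed C57BL6J wild type (WT) mice and mice lacking Klrk1 (Klrk1-/-, named NKG2D-- in the labels) with a normal chow diet (NCD) or a steatosis-steatohepatitis diet (SSD). SSD is rich in fat, fructose and cholesterol and was used as a model of metabolic fatty liver disease. Klrk1 encodes NKG2D, an activating receptor of natural killer cells and innate-like T cells, and the question was how the early liver response to the diet differs without that receptor. The groups were 4 WT mice on NCD (replicates 1, 2, 3 and 5), 5 WT mice on SSD, 4 Klrk1-/- mice on NCD and 3 Klrk1-/- mice on SSD. The study's methods give 3 weeks of feeding and male mice of 8 to 12 weeks. No conditional allele is named for the sequenced mice, so their Klrk1-/- genotype is taken to hold in every cell of the animal. Whole liver RNA of 1 mouse made each library.

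B cells carry on their surface an antibody, the B cell receptor, which is built from heavy and light chains and signals through the Cd79a and Cd79b proteins. A mature naive B cell makes IgM and IgD together from the Ighm and Ighd constant regions by alternative splicing, and most mouse B cells pair them with a kappa light chain, whose constant region is Igkc. When a B cell becomes a plasma cell it lowers Pax5, the factor that holds B cell identity, and Ms4a1 (CD20), and it makes secreted antibody together with Jchain, which joins IgM and IgA into polymers, and Mzb1, a chaperone of the endoplasmic reticulum. The liver holds circulating and resident B cells and few plasma cells among a large majority of hepatocytes. In whole tissue, fewer cells of a type and less RNA per cell cannot be told apart.

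All libraries were of similar depth, with 19892025 to 28936707 reads on genes and a median of 23332100. Klrk1 lay between 20.1 and 28.7 normalized counts in WT NCD mice and between 32.9 and 71.1 in WT SSD mice, against 1.23 to 8.71 in Klrk1-/- NCD mice and 0.966 to 4.29 in Klrk1-/- SSD mice, so every library matched its labelled genotype. A single library stood apart. In WT SSD replicate 1 all 5 pan-leukocyte markers reached their highest value of the 16 mice. For some of the results that rest on it a value without it is given too. The values are normalized counts, which are reads on a gene divided by 1 factor per library. Differences are on the scale of log2(normalized count + 1) unless a ratio of means is named, and each is given with its standard error (SE).

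Ighm lies on chr12:113382178-113386350 and Ighd on chr12:113370224-113379944, both on the minus strand of GRCm39. Igkc lies on chr6:70703419-70703950, a gene of 532 bases. The genome annotation gives Ighm 2 transcripts, 1 of 4 exons and 1493 bases and 1 of 6 exons and 1698 bases. The longer one ends in the additional exons chr12:113382573-113382688 and chr12:113382178-113382454, which encode the membrane anchor of IgM. Counts per gene add both forms, so secreted and membrane IgM are not separated in these data. Jchain lies on chr5:88667668-88675750, Cd79a on chr7:24596806-24601622, Cd79b on chr11:106202167-106205588, Ms4a1 on chr19:11227039-11243605 and Pax5 on chr4:44524757-44710487. Ighm, Ighd, Jchain and Cd79b overlap no other annotated gene. Mzb1 overlaps Gm50318 on its own strand, Cd79a and Igkc overlap 2 predicted genes each, Ms4a1 overlaps 1 gene of the other strand and Pax5 overlaps 5 genes. The overlaps and the Ighm transcripts were read from a later GENCODE release than the one the study counted on. Where the overlapping genes were in the study's release too, reads of these 5 could be divided or lost in counting, which was not tested. Gm50318 has values of its own in the deposited table.

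Windows before the genes are shown for 2 members of unlike pattern, Jchain, which was lower on SSD in WT mice, and Cd79a, whose groups overlapped. Each line gives the 250 bases before the annotated gene start, 5′ to 3′ on the strand of the gene, read from the GRCm39 genome at chr5:88675751-88676000 (minus strand) and chr7:24596556-24596805 (plus strand).
Jchain: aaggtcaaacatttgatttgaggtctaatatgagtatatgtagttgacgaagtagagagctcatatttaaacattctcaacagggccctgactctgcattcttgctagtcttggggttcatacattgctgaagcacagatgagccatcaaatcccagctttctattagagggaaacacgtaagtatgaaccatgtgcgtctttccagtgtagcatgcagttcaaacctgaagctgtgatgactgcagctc
Cd79a: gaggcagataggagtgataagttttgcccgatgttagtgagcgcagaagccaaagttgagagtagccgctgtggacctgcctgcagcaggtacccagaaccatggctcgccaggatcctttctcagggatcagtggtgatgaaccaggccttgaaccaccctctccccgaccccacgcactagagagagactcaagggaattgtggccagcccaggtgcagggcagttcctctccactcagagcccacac
The windows were searched on both strands for 2 motifs, which do not overlap in any window shown. The octamer ATGCAAAT is the site of Oct factors in immunoglobulin promoters, and the EBF1-like palindrome, TCCC and GGGA with any 2 bases between them, is bound by the B cell factor EBF1. Neither set of letters occurs in the windows of Jchain, Cd79a, Cd79b, Ms4a1 and Pax5. The octamer was present in 2.08% and the EBF1-like motif in 0.855% of the windows of all 25719 genes.

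Ighm, the constant region of IgM, showed the widest range of the 9 genes. It measured 428, 687, 1105 and 723 normalized counts in the 4 WT NCD mice, and 2030.0, 1507, 1699 and 1871 in the 4 Klrk1-/- NCD mice. On SSD it measured 201, 150.4, 177, 199.9 and 154 in the 5 WT mice, and 140.0, 130.1 and 169 in the 3 Klrk1-/- mice. Every NCD mouse was above every SSD mouse, every Klrk1-/- NCD mouse was above every WT NCD mouse, and the SSD groups of both genotypes overlapped.

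The mean of Ighm was 736 ± 279 (SD, n = 4) in WT NCD and 177 ± 24.2 (SD, n = 5) in WT SSD mice, 4.17 times higher on NCD, with a log2 difference between SSD and NCD of -1.98 (SE 0.22). In Klrk1-/- mice the NCD mean was 1777 ± 225 (SD, n = 4) and the SSD mean 146 ± 20.1 (SD, n = 3), 12.1 times higher on NCD, with a log2 difference of -3.59 (SE 0.12). On NCD the Klrk1-/- mean was 2.41 times the WT mean, a log2 difference of 1.34 (SE 0.21). On SSD the log2 difference between Klrk1-/- and WT was -0.27 (SE 0.14). The diet difference was thus larger in Klrk1-/- than in WT mice by 1.61 on the log2 scale (SE 0.29), and the higher NCD level, not the SSD level, made up most of that gap. The values rested on 145 to 1767 reads per library. Over all alternative settings the log2 difference stayed between -2.22 and -1.64 for SSD against NCD in WT mice, between -3.70 and -3.34 in Klrk1-/- mice and between 1.11 and 1.56 for Klrk1-/- against WT on NCD.

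**Figure D1:**
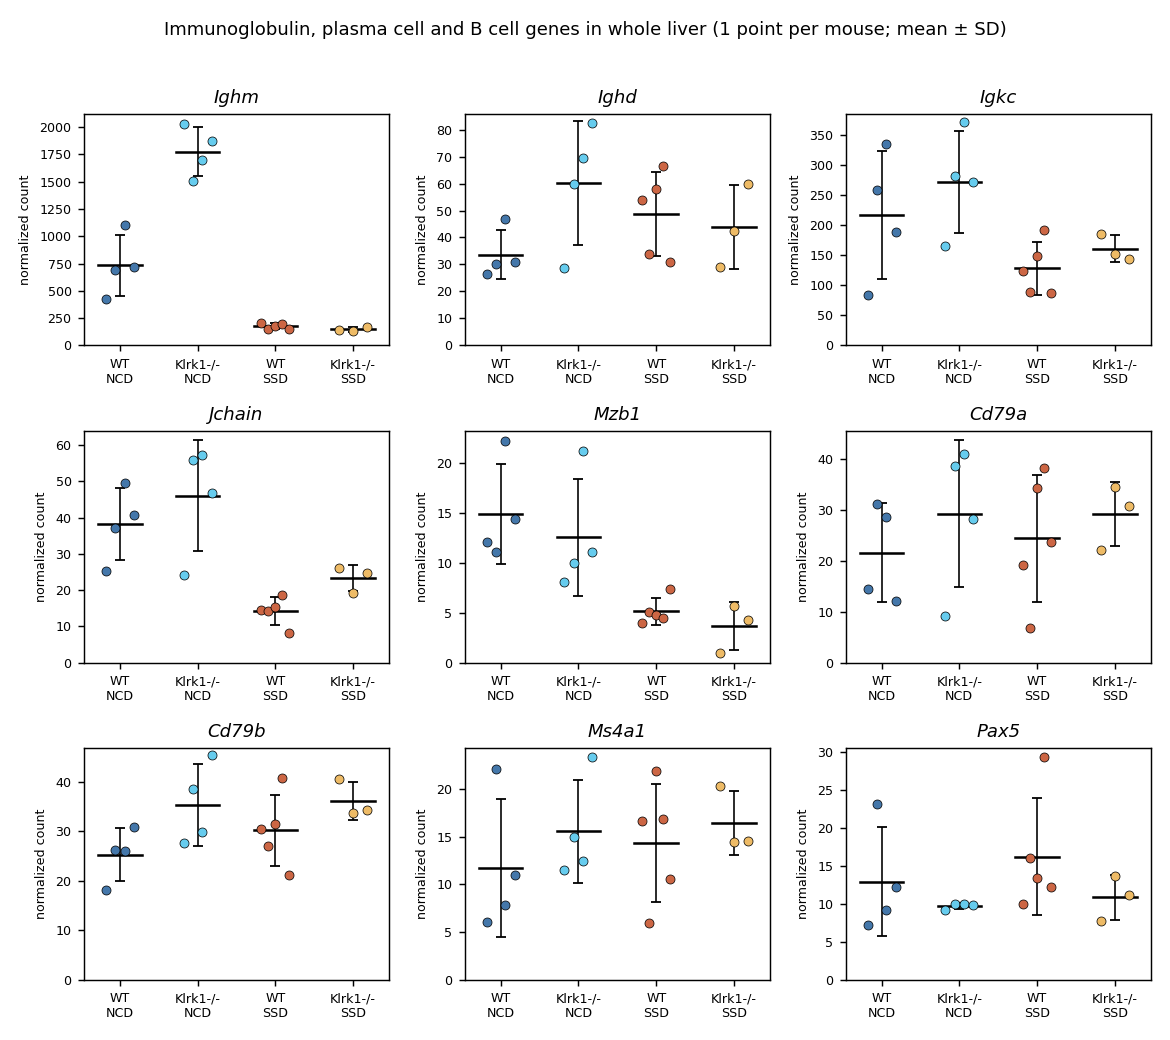
Normalized counts of the 9 genes (1 panel each, linear y axis from 0) in the 16 mice by group. Points are mice, horizontal lines group means and error bars 1 SD. Ighm separates the NCD from the SSD mice and the 2 genotypes on NCD, while Cd79a, Cd79b, Ms4a1 and Pax5 overlap between diets and between genotypes.

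Ighd, the IgD constant region that naive B cells make beside Ighm, did not share this pattern. It measured 26.5, 30.2, 46.9 and 30.9 normalized counts in WT NCD, 28.7, 59.7, 69.6 and 82.4 in Klrk1-/- NCD, 53.8, 33.8, 58.1, 66.6 and 31.0 in WT SSD and 29.0, 42.6 and 60.0 in Klrk1-/- SSD mice. All groups overlapped. The log2 difference between SSD and NCD was 0.49 (SE 0.27) in WT mice, of the opposite sign to that of Ighm, and -0.41 (SE 0.34) in Klrk1-/- mice. Between Klrk1-/- and WT it was 0.75 (SE 0.30) on NCD and -0.15 (SE 0.31) on SSD.

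Igkc, the kappa light chain constant region, was intermediate. It measured 84.4, 259, 334 and 189 normalized counts in WT NCD, 164, 281, 371 and 271 in Klrk1-/- NCD, 124, 88.7, 148, 192 and 87.4 in WT SSD and 185, 152 and 143 in Klrk1-/- SSD mice. The group means were 216 ± 106 (SD, n = 4), 272 ± 84.5 (SD, n = 4), 128 ± 43.9 (SD, n = 5) and 160 ± 22.3 (SD, n = 3) in that order, and all groups overlapped. The log2 difference between SSD and NCD was -0.65 (SE 0.35) in WT and -0.71 (SE 0.22) in Klrk1-/- mice, with a difference between them of -0.06 (SE 0.49). The WT value was -1.04 without WT NCD replicate 1 and -0.39 without WT NCD replicate 3. Between Klrk1-/- and WT on NCD it was 0.44 (SE 0.35), and 0.04 without WT NCD replicate 1, the mouse with the lowest Igkc.

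Per kilobase of gene length, Ighm was above Igkc in WT NCD mice (461 ± 175 against 407 ± 199 normalized counts per kb, SD, n = 4) by less than the spread between mice. In Klrk1-/- NCD mice Ighm stood at 1113 ± 141 per kb (SD, n = 4), and Igkc at a mean of 511 per kb. On SSD the order was the other way round, with means of 111 for Ighm and 241 for Igkc per kb in WT mice and 91.7 and 301 per kb in Klrk1-/- mice.

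Of the plasma cell genes, Jchain was lower on SSD. It measured 25.3, 37.3, 49.5 and 40.8 normalized counts in WT NCD and 14.6, 14.4, 15.2, 18.7 and 8.16 in WT SSD mice, groups that did not overlap. In Klrk1-/- mice it measured 24.1, 56.0, 57.2 and 46.7 on NCD and 26.1, 19.3 and 24.9 on SSD, which overlapped through replicate 1 on NCD. The log2 difference between SSD and NCD was -1.37 (SE 0.29) in WT and -0.88 (SE 0.30) in Klrk1-/- mice. On SSD all 3 Klrk1-/- mice were above all 5 WT mice, a log2 difference of 0.71 (SE 0.31), which is the opposite sign to that of Ighm in the same mice. On NCD the genotypes overlapped, with a log2 difference of 0.23 (SE 0.29).

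Mzb1, on chr18:35780320-35782420 (minus strand), was low throughout, and passed the minimum mean of 10 normalized counts in 1 comparison, Klrk1-/- against WT on NCD. It measured 12.1, 11.1, 22.2 and 14.3 normalized counts in WT NCD, 8.04, 9.95, 21.1 and 11.1 in Klrk1-/- NCD, 3.99, 5.07, 4.76, 4.44 and 7.35 in WT SSD and 0.966, 5.62 and 4.29 in Klrk1-/- SSD mice, with 1 Klrk1-/- SSD mouse under the floor of 3 reads. Every NCD mouse was above every SSD mouse. Fitted with no minimum mean, the log2 difference between SSD and NCD was -1.35 (SE 0.32) in WT and -1.64 (SE 0.48) in Klrk1-/- mice, the latter -1.11 without Klrk1-/- SSD replicate 1. Gm50318, which overlaps Mzb1, moved along with it, with means of 42.9 ± 13.5 (SD, n = 4) in WT NCD, 46.8 ± 17.0 (SD, n = 4) in Klrk1-/- NCD, 13.8 ± 4.58 (SD, n = 5) in WT SSD and 7.68 ± 3.09 (SD, n = 3) in Klrk1-/- SSD mice, and how reads were divided between the 2 genes was not tested.

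The surface genes of B cells and Pax5 overlapped between diets within each genotype and between genotypes on each diet. Cd79a, a signalling chain of the B cell receptor, measured 14.5, 31.2, 28.7 and 12.1 normalized counts in WT NCD, 9.19, 38.6, 41.0 and 28.3 in Klrk1-/- NCD, 19.3, 6.76, 34.3, 38.2 and 23.7 in WT SSD and 22.2, 34.5 and 30.9 in Klrk1-/- SSD mice. The spread between mice of a group was wider than any difference between groups, and the log2 differences ran from 0.08 (SE 0.47), the diet difference of WT mice, to 0.42 (SE 0.48), the genotype difference on SSD.

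Cd79b, the partner chain of Cd79a, measured 18.1, 26.2, 26.1 and 30.9 in WT NCD, 27.6, 38.6, 29.8 and 45.5 in Klrk1-/- NCD, 30.6, 27.0, 31.4, 40.9 and 21.2 in WT SSD and 40.6, 33.7 and 34.3 in Klrk1-/- SSD mice. Its largest log2 difference was 0.46 (SE 0.25), for Klrk1-/- against WT on NCD, and the groups overlapped.

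Ms4a1, which encodes CD20, measured 6.03, 22.2, 7.82 and 11 in WT NCD, 11.5, 14.9, 12.4 and 23.4 in Klrk1-/- NCD, 16.6, 5.91, 21.9, 16.9 and 10.6 in WT SSD and 20.3, 14.5 and 14.6 in Klrk1-/- SSD mice. The log2 difference between SSD and NCD was 0.31 (SE 0.45) in WT and 0.11 (SE 0.33) in Klrk1-/- mice.

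Pax5, the identity factor of B cells, measured 7.24, 23.2, 9.12 and 12.1 in WT NCD, 9.19, 9.95, 9.95 and 9.84 in Klrk1-/- NCD, 9.96, 16.1, 13.3, 29.3 and 12.2 in WT SSD and 7.73, 13.7 and 11.1 in Klrk1-/- SSD mice. The diet difference of WT mice was 0.33 (SE 0.40) on the log2 scale and the genotype difference on SSD was -0.47 (SE 0.39). At such levels a library holds few reads of the gene, and differences under about 2 standard errors were not detectable.

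The mice of a group did not order the members alike. In the Klrk1-/- NCD group, replicate 1 had the highest Ighm (2030.0) and the lowest Ighd (28.7), Igkc (164), Jchain (24.1), Mzb1 (8.04), Cd79a (9.19), Cd79b (27.6) and Ms4a1 (11.5) of the 4 mice. Its Pax5 value (9.19) was also the lowest, but Pax5 had 8 reads in every library of that group. In the WT NCD group, replicate 1 was lowest in 7 of the 9 genes, Ighm among them, and the exceptions were Mzb1 and Cd79a.

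Read against all genes, 8 of the 9 members passed the minimum mean in each comparison but Klrk1-/- against WT on NCD, where all 9 did. For SSD against NCD in WT mice, 2 members (Ighm and Jchain) were past an adjusted p of 0.05 and 2-fold by limma, both lower, where 2.9% of the 13091 genes tested were called lower and 9.01% in either direction. Including Mzb1, 3 members had groups that did not overlap, all lower on SSD, where 15.5% of genes did not overlap in that direction. In Klrk1-/- mice 1 member, Ighm, was called lower (2.92% of 12904 genes) and 2, Ighm and Mzb1, did not overlap (19.7% lower). For Klrk1-/- against WT on NCD, 1 member, Ighm, was called higher (0.849% of 12845 genes) and did not overlap (9.54% higher). On SSD none was called (1.15% of 13116 genes) and Jchain did not overlap (9.19% higher). The interaction of diet and genotype called 1 member, Ighm, negative, where 0.436% of 13068 genes were. The member list was drawn up with these contrasts known, so nothing is read from its counts. The median log2 difference of the members that passed was 0.16, -0.18, 0.44 and 0.28 for diet in WT, diet in Klrk1-/-, genotype on NCD and genotype on SSD, with the median of all genes at -0.00 or 0.00 in each.

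The level of Ighm relative to B cell surface genes was then taken per mouse, as log2 of Ighm minus the mean log2 of Cd79a, Cd79b and Ms4a1. It was 5.07, 4.66, 5.85 and 5.40 in WT NCD, 7.05, 5.69, 6.03 and 5.86 in Klrk1-/- NCD, 3.17, 3.72, 2.58, 2.70 and 3.07 in WT SSD and 2.36, 2.29 and 2.71 in Klrk1-/- SSD mice. Every NCD mouse was above every SSD mouse, and both genotypes overlapped on each diet. The means were 5.24 ± 0.50 (SD, n = 4), 6.16 ± 0.61 (SD, n = 4), 3.05 ± 0.45 (SD, n = 5) and 2.46 ± 0.22 (SD, n = 3) in the same order.

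Relative to the plasma cell genes Jchain and Mzb1 the differences were smaller between diets in WT mice. The log2 of Ighm minus the mean log2 of both was 4.53, 5.0, 5.02 and 4.84 in WT NCD and 4.52, 3.97, 4.20, 4.28 and 4.15 in WT SSD mice, and the lowest NCD mouse, at 4.53, lay just above the highest SSD mouse, at 4.52. It was 7.07, 5.92, 5.57 and 6.29 in Klrk1-/- NCD and 4.27, 3.50 and 3.86 in Klrk1-/- SSD mice. All 4 Klrk1-/- NCD mice were above all 4 WT NCD mice.

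The read ratio of Ighm to Ighd, which naive B cells splice from the same transcripts, was 16.1, 22.7, 23.6 and 23.4 in WT NCD and 70.7, 25.2, 24.4 and 22.7 in Klrk1-/- NCD mice. It was 3.74, 4.45, 3.05, 3.0 and 4.97 in WT SSD and 4.83, 3.06 and 2.81 in Klrk1-/- SSD mice. The SSD mice of both genotypes lay at or under 4.97 and the NCD mice at or over 16.1, while the genotypes overlapped on each diet. The ratio of Ighm to Igkc reads was 3.72 ± 1.02 (SD, n = 4) in WT NCD, 7.30 ± 3.51 (SD, n = 4) in Klrk1-/- NCD, 1.46 ± 0.32 (SD, n = 5) in WT SSD and 0.931 ± 0.222 (SD, n = 3) in Klrk1-/- SSD mice.

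**Figure D2:**
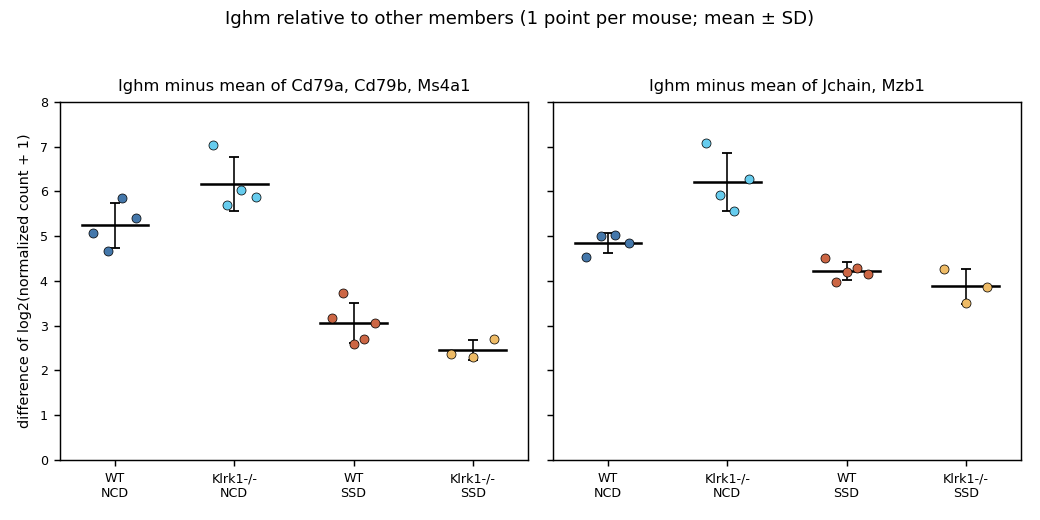
Log2 of Ighm minus the mean log2 of the surface genes Cd79a, Cd79b and Ms4a1 (left) and minus that of the plasma cell genes Jchain and Mzb1 (right), in log2 units, by mouse and group, with group means as lines and 1 SD as error bars. Relative to surface genes the NCD mice lie between 4.66 and 7.05 and the SSD mice between 2.29 and 3.72.

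Reads on the variable (V) segments, which a B cell joins to a constant region to form a complete chain, were a readout that the choice of members did not use. The table listed 113 Ighv, 100 Igkv and 3 Iglv segments, of which 64, 81 and 3 had reads, and no segment reached a mean of 10 normalized counts. Over the 16 mice they held 334, 760 and 101 reads. Reads of 100 bases that cross a junction of joined segments may fail to align, and their number was not tested.

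The summed Ighv level was 27.4 ± 13.7 (SD, n = 4) normalized counts in WT NCD, 21.6 ± 4.99 (SD, n = 4) in Klrk1-/- NCD, 15.7 ± 4.19 (SD, n = 5) in WT SSD and 21.3 ± 11.1 (SD, n = 3) in Klrk1-/- SSD mice. The groups overlapped in all 4 comparisons. On NCD, where the Ighm mean was 2.41 times higher in Klrk1-/- mice, the log2 difference of the Ighv sum was -0.22 (SE 0.42, exact two-sided permutation test, p = 0.657, adjusted p = 0.789 over 12 tests). For SSD against NCD it was -0.71 (SE 0.43, exact permutation p = 0.175, adjusted p = 0.349) in WT and -0.12 (SE 0.45, exact permutation p = 0.629, adjusted p = 0.789) in Klrk1-/- mice. Per 100 Ighm reads there were 3.93 ± 1.93 (SD, n = 4) Ighv reads in WT NCD, 1.23 ± 0.30 (SD, n = 4) in Klrk1-/- NCD, 8.98 ± 2.80 (SD, n = 5) in WT SSD and 14.7 ± 8.16 (SD, n = 3) in Klrk1-/- SSD mice.

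Kappa segments were lower on SSD in mean level, as was Igkc. The summed Igkv level was 62.3 ± 30.0 (SD, n = 4) in WT NCD, 67.3 ± 14.2 (SD, n = 4) in Klrk1-/- NCD, 30.7 ± 2.13 (SD, n = 5) in WT SSD and 38.7 ± 5.02 (SD, n = 3) in Klrk1-/- SSD mice. Igkv reads per 100 Igkc reads were 28.8 ± 2.35, 26.1 ± 6.94, 26 ± 7.34 and 24.5 ± 4.42 in that order, and these groups overlapped. The log2 difference of the Igkv sum between SSD and NCD was -0.85 (SE 0.45, exact permutation p = 0.0952, adjusted p = 0.229) in WT and -0.78 (SE 0.19, exact permutation p = 0.0571, adjusted p = 0.171) in Klrk1-/- mice, where 0.0571 is the smallest p that 4 against 3 mice allow. The Iglv sum was 10.1 ± 3.01 (SD, n = 4) in WT NCD and 4.0 ± 1.52 (SD, n = 5) in WT SSD mice, a log2 difference of -1.39 (SE 0.33) with no overlap (exact permutation p = 0.0159, adjusted p = 0.171). The Iglv mean of Klrk1-/- mice was 8.56 on NCD and 4.04 on SSD, a log2 difference of -1.07 (SE 0.24) with no overlap (exact permutation p = 0.0571, adjusted p = 0.171). The lambda constant regions Iglc2 and Iglc3 stood at -0.07 (SE 0.42) and 0.19 (SE 0.33) for diet in WT mice and at -0.54 (SE 0.45) and -0.72 (SE 0.50) in Klrk1-/- mice, and none of these passed by limma. On SSD the Igkv sum was higher in all 3 Klrk1-/- mice than in all 5 WT mice, a log2 difference of 0.33 (SE 0.12, exact permutation p = 0.0357, adjusted p = 0.171). None of the 12 tests passed after adjustment, and 2 of them had an unadjusted p under 0.05. The smallest exact permutation p that the mice allow was 0.0159 for diet in WT, 0.0286 for genotype on NCD and 0.0357 for genotype on SSD. At these group sizes a single test with complete separation could not pass the adjustment, so these failures do not show equal levels.

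**Figure D3:**
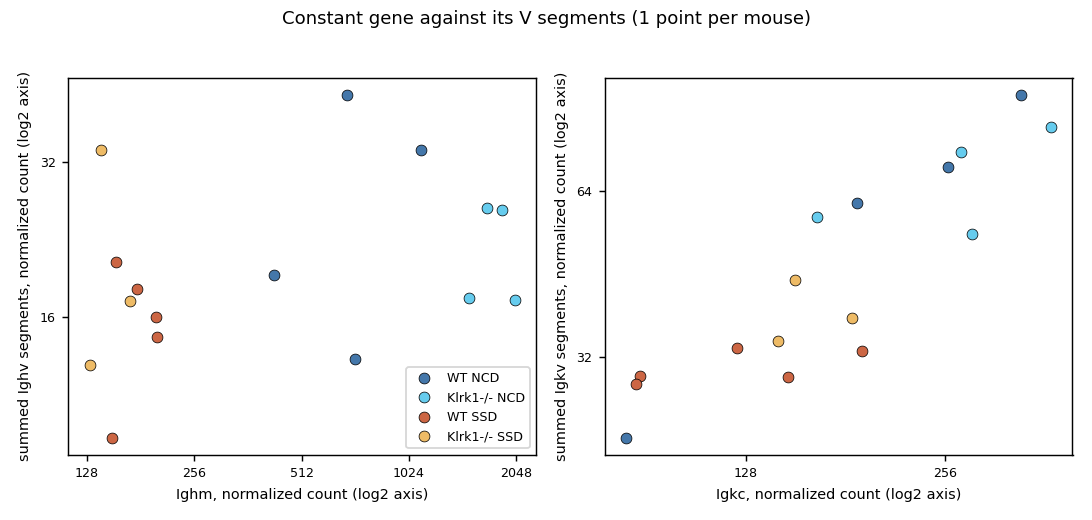
Summed normalized counts of the Ighv segments against Ighm (left) and of the Igkv segments against Igkc (right) in the 16 mice, on log2 axes, with 1 colour per group. Igkv sums are higher in mice with more Igkc. Ighv sums overlapped between the groups, at 17.2 to 26.1 in Klrk1-/- NCD mice, where Ighm was highest. They were 13.2 to 43.3 in WT NCD, 9.29 to 20.4 in WT SSD and 12.8 to 33.8 in Klrk1-/- SSD mice.

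Few reads fell on any one segment. Ighv1-56 (chr12:115206422-115206855, minus strand) held 21.4% of the Ighv level, with 71 reads in 15 of the 16 mice, followed by Ighv7-3 with 3.94% and Ighv9-3 with 2.87%. Among kappa segments Igkv1-110 (chr6:68247469-68248251, plus strand) held 6.66%, Igkv1-117 held 4.98% and Igkv6-15 held 4.62%. The share of the most abundant Ighv segment within a mouse was 17.4% ± 5.59 (SD, n = 4) in WT NCD, 27.7% ± 10.1 (SD, n = 4) in Klrk1-/- NCD, 28.2% ± 12.5 (SD, n = 5) in WT SSD and 19.2% ± 10.6 (SD, n = 3) in Klrk1-/- SSD mice. None of the 8 comparisons of such shares passed an exact permutation test, with adjusted p-values between 0.635 and 0.771. At these group sizes a single such comparison could not pass the adjustment, so these results do not show equal shares. The windows before the start of the leading segment and of 2 segments that hold a motif are shown, since the octamer is absent from the windows of Jchain and Cd79a. They are chr12:115206856-115207105 (minus strand), chr12:114117265-114117514 (minus strand) and chr6:68247219-68247468 (plus strand) of GRCm39, with the octamer in Ighv7-3 and the EBF1-like motif in Igkv1-110 in capitals.
Ighv1-56: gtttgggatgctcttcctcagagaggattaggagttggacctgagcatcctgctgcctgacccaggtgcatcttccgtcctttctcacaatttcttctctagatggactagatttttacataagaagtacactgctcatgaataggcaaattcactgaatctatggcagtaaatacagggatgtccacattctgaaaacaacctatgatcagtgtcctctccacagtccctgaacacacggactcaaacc
Ighv7-3: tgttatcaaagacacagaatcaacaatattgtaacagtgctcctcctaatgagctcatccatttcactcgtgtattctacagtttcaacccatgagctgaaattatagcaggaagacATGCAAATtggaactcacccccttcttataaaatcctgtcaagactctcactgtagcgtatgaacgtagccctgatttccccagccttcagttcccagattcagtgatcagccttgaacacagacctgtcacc
Igkv1-110: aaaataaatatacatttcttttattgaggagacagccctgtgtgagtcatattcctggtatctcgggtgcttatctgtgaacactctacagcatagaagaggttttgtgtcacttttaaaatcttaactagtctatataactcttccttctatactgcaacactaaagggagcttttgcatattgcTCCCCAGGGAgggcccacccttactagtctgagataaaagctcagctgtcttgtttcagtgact
The octamer of Ighv7-3 ends 125 bases before the gene start, and the EBF1-like match TCCCCAGGGA of Igkv1-110 ends 54 bases before it. The octamer was present in 79.6% of the 113 Ighv windows and 72% of the 100 Igkv windows. The EBF1-like motif was present in 0% and 11% of them. Ighv1-56 holds neither in this window. The starts of the constant genes Ighm, Ighd and Igkc are not V promoters, and their windows hold neither motif.

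The other heavy chain constant regions showed patterns of their own. Igha, the constant region of IgA, measured 37.4, 41.3, 37.8 and 30.9 normalized counts in WT NCD and 110.3, 118, 168 and 84.9 in Klrk1-/- NCD mice. All Klrk1-/- NCD mice were above all WT NCD mice, and Igha rose by 1.65 on the log2 scale (SE 0.20, limma adjusted p = 0.000633). On SSD it measured 6.64, 16.1, 37.1, 44.4 and 11.4 in WT and 64.7, 37.7 and 30.0 in Klrk1-/- mice, groups that overlapped. In Klrk1-/- mice Igha was lower on SSD than on NCD by a log2 difference of -1.46 (SE 0.27, limma adjusted p = 0.00211), and in WT mice the difference of -0.95 (SE 0.46) did not pass (adjusted p = 0.13), and was -0.61 without WT SSD replicate 1 (adjusted p = 0.222). The interaction for Igha was -0.51 (SE 0.62, adjusted p = 0.699).

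Ighg1, the constant region of IgG1, measured 7.24, 25.2, 70.4 and 26.5 in WT NCD and 6.64, 2.53, 0, 2.66 and 0 in WT SSD mice, where 4 of 5 mice were at or under the floor of 3 reads. It was lower on SSD in WT mice by a fitted log2 difference of -3.35 (SE 0.75, limma adjusted p = 0.00542), a size that depends on the pseudocount at such counts. In Klrk1-/- mice it measured 17.2, 7.47, 37.3 and 33.2 on NCD and 13.5, 23.3 and 8.57 on SSD (log2 difference -0.50, SE 0.51, adjusted p = 0.493), and the interaction of 2.85 did not pass (SE 1.02, adjusted p = 0.176). Ighm made up 82.3% ± 5.79 (SD, n = 4) of all heavy chain constant reads in WT NCD, 87.2% ± 3.15 (SD, n = 4) in Klrk1-/- NCD, 68.3% ± 7.0 (SD, n = 5) in WT SSD and 51.9% ± 6.45 (SD, n = 3) in Klrk1-/- SSD mice. The Klrk1-/- SSD mice, at 49.0%, 47.5% and 59.3%, were all under the lowest WT SSD mouse at 60.6%.

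**Figure D4:**
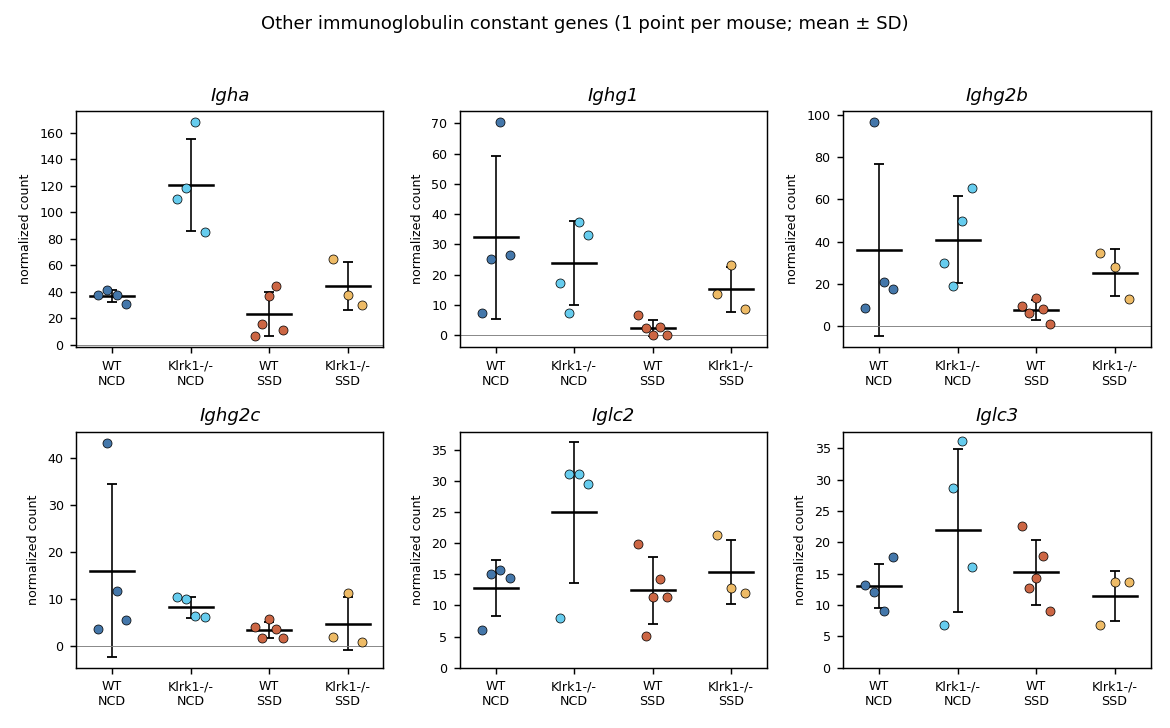
Normalized counts of the constant regions Igha, Ighg1, Ighg2b, Ighg2c, Iglc2 and Iglc3 (1 panel each) by mouse and group, with group means as lines and 1 SD as error bars. Igha lies between 84.9 and 168 in the Klrk1-/- NCD mice, above every other mouse, and Ighg1 is at most 6.64 in the WT SSD mice.

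The remaining B lineage genes were taken from 4 lists of 47 genes (surface and signalling genes, transcription factors, plasma cell genes and other constant regions), which hold none of the 9 members. For SSD against NCD in WT mice 32 were tested and 5 called, 3 higher (6.11% of all genes) and 2 lower, with a median log2 difference of 0.23 beside -0.00 for all genes. Of the 15 surface genes tested, 3 were called higher and 7 passed the adjusted p without the 2-fold limit, all of them higher (17.3% of all genes), with a median of 0.75. Cd180, a Toll-like receptor homolog of B cells and macrophages, rose from 18.1, 37.3, 37.8 and 18.8 in WT NCD to 186, 93.8, 70.4, 88.8 and 51.4 in WT SSD mice, by 1.72 (SE 0.35, limma adjusted p = 0.00325). Ralgps2, a Ras-like guanine exchange factor that is not restricted to B cells, rose by 1.16 (SE 0.12, adjusted p = 2.96e-05), with all 5 WT SSD mice above all 4 WT NCD mice. Fcrl1, an Fc receptor-like protein of B cells, rose by 1.03 (SE 0.32, adjusted p = 0.0277). The Fcrl1 call was lost when WT NCD replicate 1 or 3 or WT SSD replicate 1 or 4 was left out, with differences of 0.98, 0.94, 0.998 and 0.86. Bank1, Cd22, H2-Ob and Cd37 passed the adjusted p at 0.75, 0.84, 0.87 and 0.74, and Cd22 no longer did without WT SSD replicate 1 (0.70, adjusted p = 0.0848). Pan-leukocyte markers moved with this list, and in WT SSD mice their summed level was 1206 to 3341 normalized counts against 837 to 1053 in WT NCD mice. The 3341 was WT SSD replicate 1, and the WT SSD median was 1608. The part of other leukocytes in the list's difference was not tested. Without WT SSD replicate 1, Cd180 rose by 1.46 (adjusted p = 0.00226) and 4 genes of the 4 lists were called.

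Of the 7 plasma cell genes tested in WT mice, 1 was called lower and 5 passed the adjusted p as lower (17.6% of all genes), with a median of -0.59. These 5 were Derl3 at -1.24 (SE 0.41, limma adjusted p = 0.0351), Fkbp11 at -0.92 (adjusted p = 0.00373), Sdc1 at -0.59, Sec11c at -0.59 and Xbp1 at -0.55. For diet in Klrk1-/- mice none of the 8 plasma cell genes tested was called, with a median of -0.34. Fkbp11 at -0.81 (adjusted p = 0.0108) and Sec11c at -0.61 (adjusted p = 0.00177) passed the adjusted p as lower there, and Derl3 at -0.78, Sdc1 at -0.16 and Xbp1 at -0.04 did not. These genes serve protein folding and secretion, which hepatocytes use too, and Xbp1 stood at 7427 ± 359 normalized counts (SD, n = 4) in WT NCD mice, so their levels in whole liver cannot be assigned to plasma cells. Prdm1, Irf4 and Tnfrsf17, which define plasma cells more narrowly, did not pass the minimum mean in any comparison. The Derl3 call was lost without WT NCD replicate 1 or 5 or WT SSD replicate 1, 2 or 4, with differences between -1.28 and -0.86, and when every library was scaled to the same total (-0.90, adjusted p = 0.0666). None of the 5 transcription factors tested was called, and the 3 with the largest differences were Spib at 0.60 (SE 0.31), Bach2 at 0.29 (SE 0.26) and Pou2f2 at 0.28 (SE 0.27).

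For Klrk1-/- against WT on NCD, 32 genes of the lists were tested and 3 called, among them Igha, which was higher, and Derl3, which was lower, with a median of 0.14, where 1.7% of all genes were called in either direction. Derl3 measured 1196, 292, 344 and 726 in WT and 152, 128, 56.0 and 193 in Klrk1-/- mice, and fell by 2.16 (SE 0.42, adjusted p = 0.00805). The 12 surface genes tested had a median of 0.28. Summed pan-leukocyte markers overlapped between the genotypes on NCD, at 842 to 953 in Klrk1-/- and 837 to 1053 in WT mice.

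Between the genotypes on SSD, 31 list genes were tested and 0 called by limma (1.15% of all genes), with 6 at an unadjusted p under 0.05 (22.9% of all genes), 0 called by edgeR and 3, Cd180, Blnk and Ighg2b, by DESeq2 (2.78% of all genes). The surface list had a median of -0.35, and its largest differences were Blnk at -1.17 (SE 0.42, limma adjusted p = 0.141), Cd180 at -1.10 (SE 0.33, adjusted p = 0.0991) and Bank1 at -0.87 (SE 0.27, adjusted p = 0.0991). Blnk stood at 156 normalized counts in WT SSD replicate 1 and at 37.1 to 48.2 in the other WT SSD mice. Without WT SSD replicate 1, Cd180 at -0.84 (adjusted p = 0.0485) and Blnk at -0.80 (adjusted p = 0.0487) passed the adjusted p, and Derl3 was called at -1.90 (adjusted p = 0.0245), against -1.70 (SE 0.44, adjusted p = 0.0687) with all mice. All 5 pan-leukocyte markers were lower in the same comparison, by log2 differences of -0.84 to -0.64 with none past the adjusted p, and their sums of 990.2 to 1070.1 in Klrk1-/- SSD and 1206 to 3341 in WT SSD mice did not overlap. The macrophage markers Cd68 at -1.36 (adjusted p = 0.0135) and Marco at -2.45 (adjusted p = 0.0138) were called lower. The part of these cells in the list's difference was not tested. For SSD against NCD in Klrk1-/- mice, 33 were tested and 2 called (5.46% of all genes), Ralgps2 higher by 1.27 (SE 0.10, adjusted p = 3.12e-06) and Igha lower. The surface list had a median of 0.00 there, and Blnk, an adaptor of the B cell receptor, passed the adjusted p as lower at -0.88 (SE 0.23, adjusted p = 0.0139). Cd180, of the same list, passed as higher at 0.78 (SE 0.23, adjusted p = 0.027), as did the transcription factor Spib at 0.88 (SE 0.29, adjusted p = 0.0391). Leaving out Klrk1-/- SSD replicate 2 raised that count from 2 to 4.

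The interaction of diet and genotype called 0 of 33 genes by limma (0.536% of all genes), with 8 at an unadjusted p under 0.05 (17.3% of all genes) and 0 called by edgeR and by DESeq2 (1.5% of all genes by DESeq2). The surface list had a median of -0.66 beside 0.00 for all genes, and Bank1 came closest at -1.15 (SE 0.33, adjusted p = 0.0993). The 5 pan-leukocyte markers had interactions of -0.79 to -0.60, none past the adjusted p, and Cd68 was called at -1.57 (SE 0.26, adjusted p = 0.0107). The part of other leukocytes in the list's difference was not tested here either. For Ighm, in the same fit, the difference was -1.61 (SE 0.29).

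**Figure D5:**
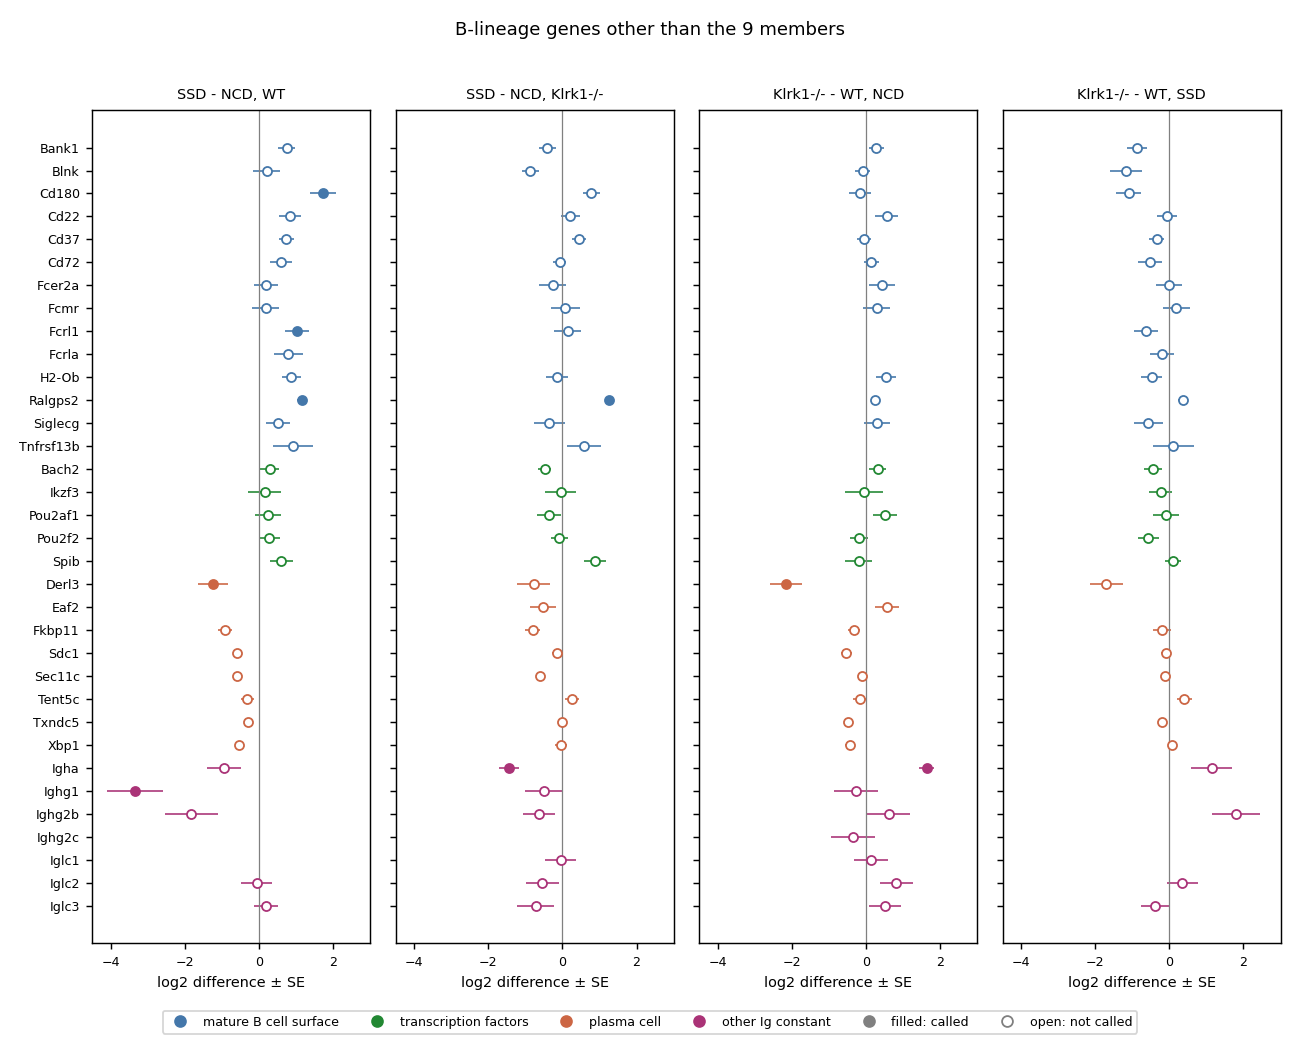
Log2 differences of B lineage genes outside the 9 members, by list, in the pairwise comparisons, with bars of 1 SE. Filled points are genes past an adjusted p of 0.05 and 2-fold. Surface genes lie mostly above 0 for SSD against NCD in WT mice (median 0.75) and mostly below 0 for Klrk1-/- against WT on SSD (median -0.35).

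Genes of other B cell stages ranged from no reads to high levels shared with other cells. Rag1 and Rag2, the recombinase of B and T cell precursors, had no read in any mouse, and Igll1, a surrogate light chain, did not exceed the floor of 3 reads. Of 10 precursor genes 3 were tested in WT mice, and Il7r rose by 2.08 (SE 0.64, limma adjusted p = 0.0261) and Cd93 by 1.22 (SE 0.19, adjusted p = 0.000652) on SSD. The Il7r call was lost without WT SSD replicate 3 (adjusted p = 0.0561), and both genes are also used by other cells, Il7r by T cells and Cd93 by endothelium. Dntt, the terminal transferase, was lower on SSD in Klrk1-/- mice by -1.69 (SE 0.43, adjusted p = 0.013). Of 6 genes tested among those of B-1 and marginal zone B cells, S1pr3, Cd9 and Spn rose in WT mice, by 1.65 (SE 0.26), 1.29 (SE 0.14) and 1.43 (SE 0.42), and S1pr3 and Cd9 rose in Klrk1-/- mice, by 1.03 (SE 0.15) and 1.15 (SE 0.09). The rest of those tested, Dtx1, Bhlhe41 and Cd1d1, had negative differences, none past the adjusted p. They stood at -0.69, -0.54 and -0.40 in WT and at -0.65, -0.03 and -0.25 in Klrk1-/- mice, so the list was split in direction. Over all genes 6.11% were called higher for diet in WT mice, and 5.46% in either direction in Klrk1-/- mice. The Spn call was lost without WT NCD replicate 1 (adjusted p = 0.0611), and the S1pr3 call in Klrk1-/- mice fell under 2-fold without Klrk1-/- NCD replicate 4 (0.97) or Klrk1-/- SSD replicate 1 (0.92). Cd9, a tetraspanin of many cell types, stood at 489 ± 54.3 normalized counts (SD, n = 4) in WT NCD mice. None of 4 tested germinal centre genes was called, and S1pr2 passed the adjusted p at 0.90 (SE 0.15) in WT and 0.81 (SE 0.14) in Klrk1-/- mice.

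The genes whose log2 levels over the 16 mice were most like those of Ighm were searched among 13068 genes by Pearson correlation. They were Atg16l2 (r = 0.969), Chrna4 (0.963), Grk5 (0.963), Pdzk1ip1 (0.96), Rdh11 (0.958), Cnp (0.950), Pfkfb1 (0.949) and Lss (0.948), none of them a B cell gene by the lists used here. Chrna4, a nicotinic receptor subunit, had means of 791 in WT NCD, 2334 in Klrk1-/- NCD, 1.90 in WT SSD and 1.64 in Klrk1-/- SSD mice. Lss, lanosterol synthase of the cholesterol pathway, had means of 2063, 2910, 339 and 433 in the same order. Of the other members, Jchain had r = 0.794 with Ighm, Igkc 0.679, Ighd 0.185, Cd79b 0.0476, Cd79a 0.0319, Ms4a1 -0.0126 and Pax5 -0.284. The 16 points fall into 4 groups that share diet and genotype, so these values describe how the groups are ordered and carry no p-value.

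Genes most like Cd79a, taken the same way, included Zfp94 (r = 0.794), Tnfrsf4 (0.791), Pias1 (0.741), Pms1 (0.720), Ager (0.688), Lrp6 (0.688) and Fmo4 (0.686). Its correlation was 0.647 with Ighd, 0.590 with Ms4a1, 0.558 with Igkc, 0.406 with Cd79b, 0.284 with Jchain and 0.0319 with Ighm. By this measure Ighd was nearer to Cd79a than to Ighm.

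Markers of other cell types gave the following sums beside these results. The 10 T cell markers summed to 185 to 210 normalized counts in WT NCD, 202 to 263 in Klrk1-/- NCD, 132 to 219 in WT SSD and 153 to 184 in Klrk1-/- SSD mice. Cd4, the coreceptor of helper T cells, made up much of the NCD sums and went against the other markers, with a log2 difference between SSD and NCD of -2.09 (SE 0.21, limma adjusted p = 2.62e-05) in WT and -1.92 (SE 0.25, adjusted p = 0.000167) in Klrk1-/- mice. The other 9 T cell markers summed to 83.6 to 109 in WT NCD and 117 to 192 in WT SSD mice, and to 85 to 122 in Klrk1-/- NCD and 128 to 153 in Klrk1-/- SSD mice, higher on SSD in both genotypes with no overlap. Of them Lck at 0.88 (adjusted p = 0.0187) and Trac at 0.99 (adjusted p = 0.0398) passed the adjusted p as higher in WT mice. The 6 macrophage markers summed to 4041 to 4768 in WT NCD, 3572 to 4381 in Klrk1-/- NCD, 5054 to 11611 in WT SSD and 4105 to 5109 in Klrk1-/- SSD mice. The 11611 was WT SSD replicate 1, and the WT SSD median was 5731. The 9 markers of blood cells summed to 5901 to 8163, 4029 to 11197, 2389 to 9954 and 4282 to 16087, and overlapped between all groups. Alas2 made up much of these sums, at 1536 to 3874 over the mice. It passed the adjusted p as lower on SSD, at -0.69 (SE 0.14) in WT and -0.46 (SE 0.13) in Klrk1-/- mice, and no other blood marker passed. Hbb-bs ran from 341 to 6827 over the same mice, so how much blood was left in the tissue is not read from the sums. No marker in these lists was at the floor in every mouse. The 6 hepatocyte markers summed to 2263419 to 2579108 normalized counts in WT NCD, 2188696 to 2942791 in Klrk1-/- NCD, 1430881 to 1868058 in WT SSD and 1976082 to 2131559 in Klrk1-/- SSD mice. Like Ighm, this sum was higher in every NCD mouse than in every SSD mouse, though unlike Ighm it overlapped between the genotypes on NCD. Alb made up most of the sum, and its diet difference did not pass, at -0.46 (SE 0.32) in WT and -0.25 (SE 0.22) in Klrk1-/- mice. Of the 6 markers, 3 passed the adjusted p as lower on SSD in WT mice (17.6% of all genes) and 4 in Klrk1-/- mice (2067 of 12904 genes). Hnf4a was not among them, at -0.09 (SE 0.11) in WT and 0.08 (SE 0.10) in Klrk1-/- mice. The part of these cell types in the differences was not tested.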

How the data were processed

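RNA of whole liver from 16 mice was sequenced as single reads of 100 bases. The labels name a Truseq mRNA kit and the study's methods a Truseq Total RNA kit. Per the labels and the study's methods the authors used FastQC for read quality, STAR for alignment to the GRCm39 genome, and counted reads per gene with FeatureCounts on a GENCODE annotation, with DESeq2 for fold changes. They deposited normalized counts, a signal per gene and mouse equal to the gene count divided by 1 factor per library. How that factor was computed and whether counting used strand is not given in the sources used here. The deposited table also holds the GC fraction, which was not used, and gene lengths and coordinates, and 0 of its per-sample columns were unmapped. Its 22 gene names shared by more than 1 gene were kept apart by gene ID.

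Whole reads were recovered from the deposited values, and 100% of them came out whole within 0.01 reads. Values were tested as log2(normalized count + 1) with limma 3.58.1 in R 4.3.3, on genes with a mean of at least 10 over the mice compared, with Benjamini-Hochberg adjustment over all genes tested. A call is an adjusted p under 0.05 and a change beyond 2-fold. The fits called 1179 genes for diet in WT mice, 704 for diet in Klrk1-/- mice, 219 for genotype on NCD, 151 for genotype on SSD and 70 for the interaction. On recovered reads edgeR 4.0.16 (quasi-likelihood) called 1270, 727, 233, 127 and 54, and DESeq2 1.42.0 called 1292, 713, 243, 365 and 196. Sums and shares of V segments were compared by exact two-sided permutation tests in scipy 1.17.1. P-values measure the spread between mice of one experiment. A gene at 3 reads or fewer in a library is called at the floor. Counting error only is covered by such floors.

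Genes named are the 9 members, in each list the called genes or otherwise the 3 with the largest difference, the 8 genes most correlated with Ighm and with Cd79a, and the 3 most abundant Ighv and Igkv segments. Results for some genes that this rule names are not reported here. Members and lists were chosen with earlier results of these data known. Alternatives were other pseudocounts, filters, scaling, count tests, a replicate block, 1 model for all groups and leaving out each mouse.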

Additional observations from a re-analysis of the deposited data

Results flagged for a closer look

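In the 4 Klrk1-/- mice on NCD, Pax5 had 8 reads in every library, and the normalized count of 9.19 in replicate 1 stood apart from 9.95, 9.95 and 9.84 in the other mice. With equal read numbers, the gap lies in the factors of the libraries and not in the reads. It was the 1 sample far from its group among 36 sets of 4 or 5 mice looked at over the 9 genes and the V segment sums, where chance gives about 1 in 20.

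The diet difference of Cxcl12, a chemokine that holds B cells and plasma cells in their niches, differed between the genotypes by 0.63 on the log2 scale (SE 0.14, limma adjusted p = 0.0426 for the interaction). Its level was 7505 ± 562 normalized counts (SD, n = 4) in WT NCD, 4915 ± 559 (SD, n = 5) in WT SSD, 5335 ± 406 (SD, n = 4) in Klrk1-/- NCD and 5394 ± 481 (SD, n = 3) in Klrk1-/- SSD mice. The log2 difference between SSD and NCD was -0.62 in WT mice (adjusted p = 0.000895) and 0.02 in Klrk1-/- mice (adjusted p = 0.916).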

How the results depend on the processing

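The log2 differences of the 9 genes are descriptions. Of their 727 values under other settings 708 lay within 1 SE of the value given and 19 did not, and none of the called members changed sign. Scaling every library to the same total moved the median log2 difference of all genes to 0.34 for diet in WT, 0.25 for diet in Klrk1-/-, -0.12 for genotype on SSD and -0.02 for genotype on NCD. It turned the split of calls for diet in WT mice from 800 higher and 379 lower to 1692 and 248 (1940 in all), and in Klrk1-/- mice from 327 and 377 to 680 and 270, and it left Ighm at -1.64 and -3.34.

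Counts of called genes in the 4 B lineage lists moved as follows. For diet in WT mice, 5 became 3 with a minimum mean of 50, 9 with the same total, 3 with the replicate block and 13 with no fold limit. For genotype on SSD, 0 became 1 with the same total, 3 with DESeq2 and 2 with all 4 groups in 1 model. With no fold limit 3 became 5 for genotype on NCD, and 2 became 7 for diet in Klrk1-/- mice, where the same total gave 4. Leaving out each mouse gave 4 to 6, 0 to 1, 2 to 4, 2 to 4 and 0 to 0 for diet in WT, genotype on SSD, genotype on NCD, diet in Klrk1-/- mice and the interaction.

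Counts over all genes moved for diet in WT mice to 749 with a minimum mean of 50 and 4568 with no fold limit, and for diet in Klrk1-/- mice to 469 and 3790. For genotype on SSD 151 became 96 with a pseudocount of 10, 85 with a minimum mean of 50, 365 with DESeq2, 332 with the replicate block, 293 with all 4 groups and 381 with no fold limit. With no fold limit genotype on NCD gave 1679 and the interaction 115, and the interaction gave 196 with DESeq2 and 35 with the replicate block. Leaving out each mouse gave 1013 to 1367, 35 to 251, 132 to 258, 645 to 749 and 28 to 130 in the order above. For genotype on SSD the lowest count was without Klrk1-/- SSD replicate 1 and the highest without WT SSD replicate 5. Deviations from the group means in mice of the same replicate number correlated at r between -0.133 and 0.246. Mice of different numbers were not correlated for comparison, so whether the numbers pair the mice is not known. The block changed the counts named here, and in pairwise comparisons it also left out mice without a partner of the same number. Derl3 (-1.10) and Fcrl1 (0.86) had the same differences without WT SSD replicate 4 and no block. The effects of the block and of the left-out mice were not separated. With the block the calls of Derl3, Fcrl1, Il7r and Spn for diet in WT mice were lost (limma adjusted p 0.117, 0.172, 0.0701 and 0.0673), and S1pr3 in Klrk1-/- mice fell under 2-fold (0.97). With a pseudocount of 10, Fcrl1, Il7r, Spn and S1pr3 fell under 2-fold too, and with edgeR the Cxcl13 call in WT mice was lost (adjusted p = 0.0542). The causes of these shifts were not tested. No test of V segments passed the adjusted p under any setting run, and at these group sizes a single test could not. With the same total the Igkv sum for genotype on SSD went from an unadjusted exact p of 0.0357 to 0.179, and the Ighv sum for diet in Klrk1-/- mice turned from -0.12 to 0.14 and the Iglv sum for genotype on SSD from 0.09 to -0.03.

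At these depths a member such as Pax5 or Mzb1 rests on few reads per library, and changes smaller than about 2 SE were not detectable. Reads on V segments were too few to follow single segments, and surface genes with a mean under 10 normalized counts were not tested.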

Other observations

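Factors that attract or feed B cells differed in direction. Cxcl13, the chemokine of B cell follicles, was lower on SSD, with log2 differences of -1.81 (SE 0.57, limma adjusted p = 0.0283) in WT and -1.59 (SE 0.26, adjusted p = 0.00104) in Klrk1-/- mice, and had means of 28.3 ± 11.5 normalized counts (SD, n = 4) in WT NCD, 57.2 ± 16.9 (SD, n = 4) in Klrk1-/- NCD, 9.27 ± 10.4 (SD, n = 5) in WT SSD and 17.9 ± 3.04 (SD, n = 3) in Klrk1-/- SSD mice. The call in WT mice was lost without WT NCD replicate 1, 3 or 5 or WT SSD replicate 3, with adjusted p-values between 0.0588 and 0.081. Tnfsf13, which encodes the plasma cell survival factor APRIL, passed the adjusted p as higher on SSD, by 0.86 (SE 0.18) in WT and 0.80 (SE 0.14) in Klrk1-/- mice. Tnfsf13b, which encodes BAFF, did not pass in either genotype (0.39, SE 0.57, and -0.37, SE 0.36).

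Of 5 genes tested that carry or bind antibody, 1 was called for diet in WT mice (9.01% of all genes) and none in the other comparisons. Without the 2-fold limit, 3 passed the adjusted p as higher (17.3% of all genes) and 1 as lower (17.6%) for diet in WT mice. Pigr, the receptor that moves polymeric IgA and IgM into bile, passed the adjusted p as lower on SSD in WT mice by -0.97 (SE 0.17, limma adjusted p = 0.00149), and as lower in Klrk1-/- than in WT mice on NCD by -0.59 (SE 0.12, adjusted p = 0.00806). Cd5l, a macrophage protein that binds circulating IgM, rose on SSD in WT mice by 1.54 (SE 0.25, adjusted p = 0.000787), and by 1.28 without WT SSD replicate 1. In Klrk1-/- mice Cd5l passed the adjusted p at 0.64 (SE 0.11). For Klrk1-/- against WT on SSD, Cd5l stood at -1.07 (SE 0.30, limma adjusted p = 0.0779). Without WT SSD replicate 1 it passed the adjusted p there, at -0.82 (adjusted p = 0.0124). Fcgrt, the neonatal Fc receptor that recycles IgG, passed the adjusted p at 0.32 (SE 0.11) in WT and 0.53 (SE 0.09) in Klrk1-/- mice.

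The 5 natural killer cell markers summed to 7.24 to 27.4 normalized counts in WT NCD, 20.9 to 37.3 in Klrk1-/- NCD, 26.2 to 75.1 in WT SSD and 33.7 to 44.6 in Klrk1-/- SSD mice, and the 5 markers of plasmacytoid dendritic cells to 16.9 to 33.1, 28.6 to 38.6, 28.6 to 134 and 28.0 to 36.9. The values of 75.1 and 134 were both WT SSD replicate 1, and the WT SSD medians were 40.9 and 54.1.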
